A study of Mus musculus with 4 samples.

Results

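Nucleotide and one-carbon metabolism was followed in germinal centre (GC) and naive B cells through 34 mouse genes chosen by the known function of their products. The genes were chosen with earlier results of these data known. They were read by branch: purine synthesis, purine salvage, pyrimidine, deoxynucleotide and folate genes. A gene was taken up through every probe set, a group of short probes for one transcript, that the array's annotation gives to it alone. This found 84 of 45101 probe sets, for 33 of the 34 genes, among 18193 genes in all. Impdh2 was matched by none and is not analysed here.

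The study compared 4 populations of C57BL6/J wild type B cells, with 1 Affymetrix array each, hybridised with RNA pooled from 3 to 5 mice. The sort took B220+PNA+Fas+ cells as GC B cells, and B220+PNA-Fas- cells as naive. One pair of arrays came from peripheral lymph nodes (pLN) of mice given TNP-KLH in incomplete Freund's adjuvant, the other from Peyer's patches (PP) of mice that received no treatment. Tissue and immunisation therefore cannot be told apart, precision is limited by how few arrays there are, and the pooling hides the variation between mice. The sorting gates define these B cells by surface antigens only, and other cells that pass the gates would be included.

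Cells that divide must double their DNA and need a supply of the 4 deoxynucleotides. Purine rings are built stepwise on activated ribose phosphate, pyrimidine rings are closed first and then joined to it, and salvage enzymes reuse free bases and nucleosides. Ribonucleotide reductase turns ribonucleotides into deoxynucleotides, and folate carries the one-carbon units that purines and thymidylate require. GC B cells are known for rapid division in the follicle, while naive B cells rest.

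Values are signals scaled so that each array has the same trimmed mean, in arbitrary units. A detection level was taken on each array from genes of other tissues, and was 31.6 (pLN) and 55.1 (PP) on the GC arrays and 65.3 (pLN) and 145 (PP) on the naive ones. The B cell markers were above it on all 4 arrays (5 of 5), and the GC markers on both GC arrays (7 of 7), where Mki67, a proliferation marker, read 8548 in pLN and 10204 in PP against 552 and 352 in naive cells. RNA quality moved with cell type: for Gapdh the control probe set at the 3' end divided by that at the 5' end gave 1.48 and 1.67 on the GC arrays, 18.7 on naive pLN and 96.4 on naive PP. The sum of the plasma cell markers moved with cell type as well. All 6 were above the level on both GC arrays, and their summed signal was 21778 to 27418 there against 7950 to 10912 on the naive arrays. Without Jchain the sums were 12525 and 16800 on the GC arrays and 9205 and 7122 on the naive ones. Sdc1 and Irf4 read lower in GC than in naive cells of pLN, while Prdm1, Xbp1, Jchain and Mzb1 read higher in both tissues. Macrophage markers summed to 3305 to 4471 on the GC arrays, with 4 to 5 of 8 above the level, and to 1160 to 1279 on the naive arrays, with 3 to 4. Without Apoe, the brightest of them, the sums were 777 and 909 on the GC arrays and 856 and 787 on the naive ones. Dendritic cell markers summed to 1304 and 1880 on the GC arrays (3 and 4 of 5 above the level) against 614 and 274 on the naive arrays (4 and 0 of 5), and without Flt3 to 221 and 650 against 543 and 260. T cell markers summed to 592 to 1165 over the 4 arrays. Without Cd8a the sums were 465 (pLN) and 832 (PP) on the GC arrays and 617 and 251 on the naive ones. Gut epithelium markers were highest on naive PP (summed signal 3080 against 481 to 1230 elsewhere). The stromal list was mostly Cr2, a complement receptor that B cells also carry, and 0 of its other 4 genes were above the level on the naive arrays and 1, Pecam1, on the GC arrays. The part of these shifts in the results below was not tested.

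The first question was how the genes differed between GC and naive cells in both tissues. Most genes that make deoxynucleotides were higher in GC cells, together with a large part of the purine synthesis genes and the mitochondrial folate genes Mthfd2 and Shmt2. Samhd1, which degrades deoxynucleotides, was lower. Of the 33 genes, each represented by its brightest probe set, 17 were called higher and 6 lower at a limma adjusted p under 0.05, and 10 were not called. Over all 10285 genes tested, 23.3% were called higher and 22.1% lower. Among the members these shares were 51.5% and 18.2%. The median log2 difference was 1.04 over the 33 genes and -0.01 over all genes tested. All 33 passed the filter on dim genes, but Pfas, Atic, Impdh1, Tyms and Dctd did so only through the GC arrays, so the filter and their calls are not independent. Of the 28 members above the level on all 4 arrays, 13 were called higher, 5 lower and 10 not called, where 16.6% of all such genes were called higher and 26% lower. Both GC signals lay above both naive signals for 18 members and below them for 8, against 37.7% and 39.4% of the tested genes. In bulk RNA, fewer cells that express a gene and less RNA per cell cannot be told apart.

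The test has a single residual degree of freedom, from how far the tissues disagree, which limma moderates by the spread of other genes. That spread weighs as 11.9 prior degrees of freedom, so the errors given below come mostly from other genes. Without the tissue block 14 members were called higher and 4 lower. A fit on 3 arrays has no block either: without GC PP 10 members were called higher and 1 lower, and without GC pLN 11 and 1. In both fits the calls of Prps2, Ppat, Uck2, Dck, Dctd and Shmt2 were absent (those of Uck2, Dck and Dctd were lost without the block alone), and without GC PP also that of Tyms. Of the lower genes Samhd1 was called without GC pLN and Mthfd1 without GC PP. Without the naive PP array, which had the strongest 3' bias, 18 were called higher and 6 lower. Scaling to the spike-in controls moved the median of all genes tested to 1.30, and then 16 members were called higher and 0 lower by limma, with 0 lower at an unadjusted p under 0.05. Under that scaling Gart and Shmt1 turned to 0.23 and 0.024, and Cad, Impdh1, Mthfd1 and Samhd1 stayed below 0 without being called.

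**Figure D1:**
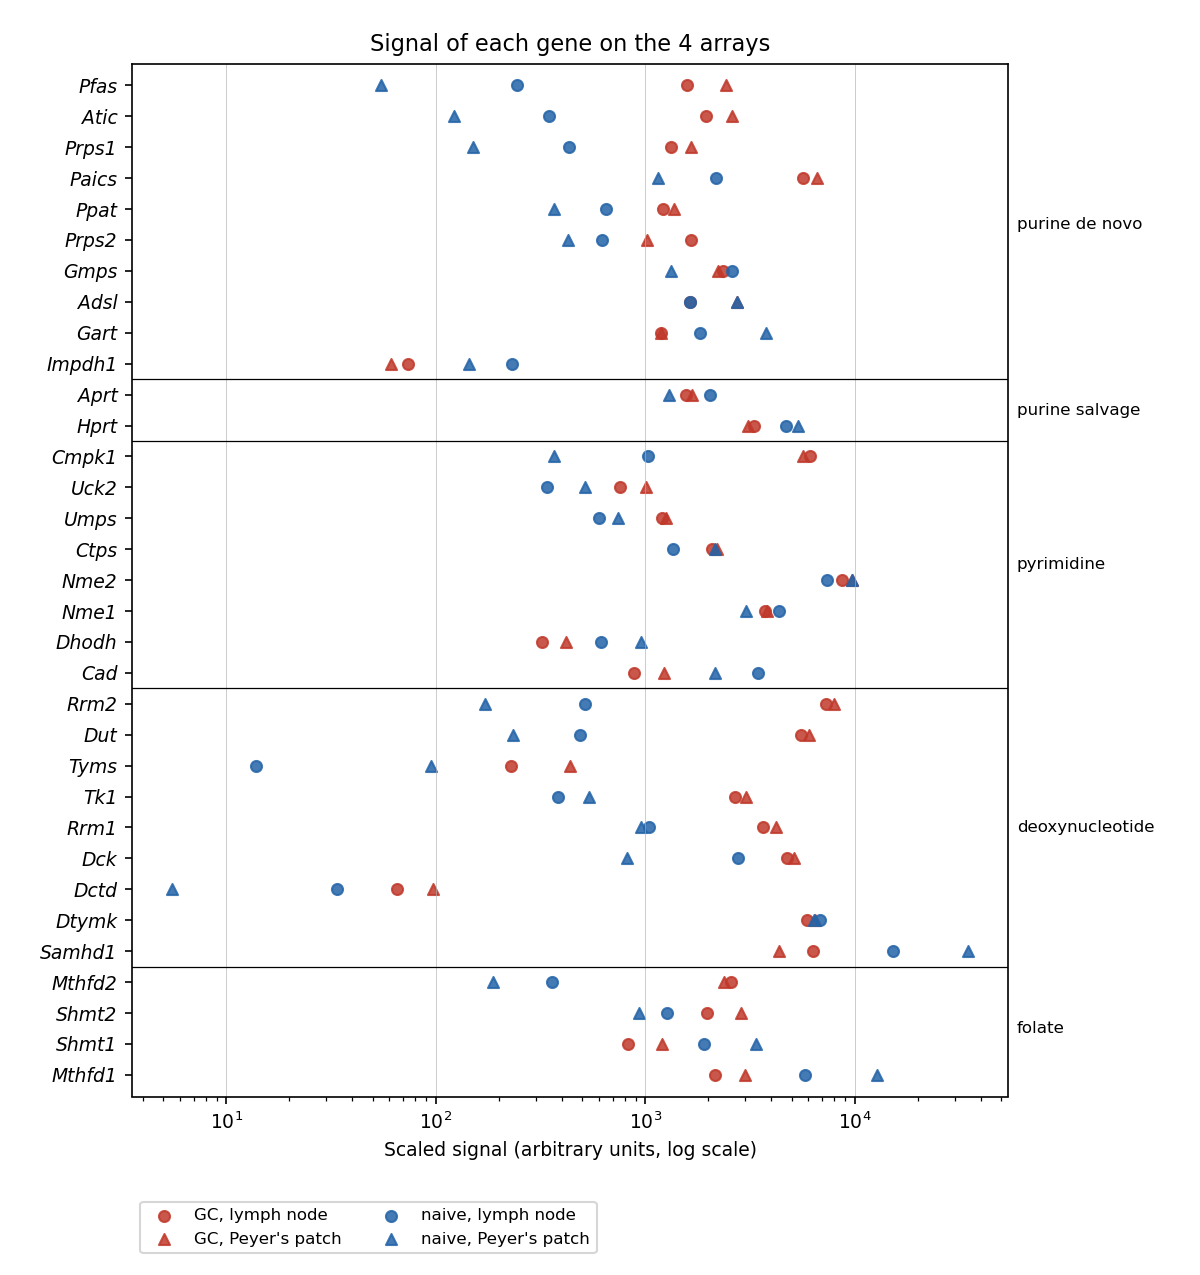
Scaled signal (arbitrary units, log axis) of the brightest probe set of each of the 33 genes, grouped by branch; red marks GC and blue naive arrays, circles lymph node and triangles Peyer's patch. The GC signals of Rrm2 (7288 and 7985) stand far to the right of its naive signals (518 and 171), while those of Samhd1 (6349 and 4364) stand to the left of its naive signals (15297 and 34767).

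Deoxynucleotide genes came first in size. Of 9 genes, 7 were called higher (77.8%), 1 lower (11.1%) and 1 not, against 23.3% and 22.1% of all genes tested. The median log2 difference was 1.96. Tyms and Dctd passed the filter only through the GC arrays. Rrm2, the small subunit of ribonucleotide reductase whose supply follows the cell cycle, read 7288 on GC pLN and 7985 on GC PP, against 518 on naive pLN and 171 on naive PP. The groups did not overlap, and the ratio was 14.1 in pLN and 46.6 in PP. The log2 difference was 4.61 ± 0.43 (moderated SE of the limma fit, limma adjusted p = 1.35e-05). Rrm1, the large subunit, read 3632 and 4228 in GC cells (pLN, then PP) against 1037 and 955 in naive cells, a difference of 1.96 ± 0.37 (limma adjusted p = 0.00125). Its naive signals were close to each other, so its ratio was similar in both tissues, at 3.50 in pLN and 4.43 in PP.

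Dut, which removes dUTP so that uracil is not built into DNA, read 5512 and 6050 in GC cells and 487 and 233 in naive cells. It differed by 4.05 ± 0.40 (limma adjusted p = 2.06e-05), the second largest difference of the 33. Tyms, thymidylate synthase, which makes dTMP from dUMP with a folate cofactor, read 230 and 436 in GC cells but only 13.9 and 95.5 in naive cells. Both naive signals lay under the detection level, and GC cells exceeded naive cells by at least 3.25-fold, a bound that sets the naive signals at the level (limma adjusted p = 0.0016). Tk1, the thymidine kinase of dividing cells, read 2695 and 3021 against 385 and 541, and was 2.61 ± 0.38 higher (limma adjusted p = 0.000233). Tk1 had the larger log2 difference in pLN, unlike Rrm2 and Dut.

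Dck, which phosphorylates salvaged deoxynucleosides, read 4753 and 5129 in GC cells against 2759 and 816 in naive cells. The GC signals were alike and the naive signals 3.38-fold apart, and the difference was 1.71 ± 0.45 (limma adjusted p = 0.00896). Dctd, dCMP deaminase, was dim throughout, at 65.1 and 96.8 in GC cells and 33.9 and 5.51 in naive cells. It was called (limma adjusted p = 0.0414), but both naive signals lay under the level, and set at the level they left no excess in GC cells, so no fold is given. Dtymk, which converts dTMP to dTDP, read 5897 and 6471 against 6857 and 6394 and was not called (-0.10 ± 0.41).

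Samhd1, a phosphohydrolase that breaks down deoxynucleoside triphosphates, went the other way. It read 6349 on GC pLN and 4364 on GC PP, against 15297 on naive pLN and 34767 on naive PP. Naive cells were 2.41-fold higher in pLN and 7.97-fold higher in PP, with no overlap. The difference was -2.13 ± 0.51 (limma adjusted p = 0.00517). Of its 4 tested probe sets 3 were called lower and the other differed by 0.16. With scaling to the spike-in controls its difference kept its sign at -0.76 and was not called (limma adjusted p = 0.139).

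Purine synthesis genes were mostly higher in GC cells. Of 10 genes from ribose activation to GMP, 6 were called higher, 2 lower and 2 were not called (median log2 difference 1.34). These shares were 60% higher and 20% lower, against 23.3% and 22.1% of all genes tested. Pfas, Atic and Impdh1 passed the filter only through the GC arrays. Prps1, which makes the activated ribose phosphate PRPP, read 1321 and 1652 in GC cells (pLN, then PP) and 433 and 150 in naive cells. It was 2.47 ± 0.47 higher (limma adjusted p = 0.00125). Its paralog Prps2 read 1651 and 1020 against 621 and 426, a difference of 1.31 ± 0.38 (limma adjusted p = 0.0148). Prps2 was the gene with the largest drop from pLN to PP among GC signals, and Prps1 moved the other way.

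Ppat, the amidotransferase that commits PRPP to purine synthesis, read 1213 and 1371 in GC cells and 653 and 368 in naive cells. It was 1.37 ± 0.41 higher (limma adjusted p = 0.016). Paics, a bifunctional enzyme of the middle steps, read 5643 and 6589 against 2181 and 1153 and was 1.93 ± 0.41 higher (limma adjusted p = 0.00248). The ratio was larger in PP for both, at 3.73 for Ppat and 5.71 for Paics. Represented instead by whichever probe set was brightest in naive cells, Paics differed by 0.56 and was not called (limma adjusted p = 0.238). Pfas, which acts between them in the pathway, read 1580 and 2442 in GC cells against 245 and 54.6 in naive cells. The naive PP signal was below the level, and the gene was at least 10.4-fold higher (limma adjusted p = 0.00018). Atic, which performs the last folate-dependent steps to IMP, read 1954 and 2584 against 346 and 123. It was at least 10.02-fold higher by the same bound (limma adjusted p = 0.000179).

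Other purine synthesis genes were not called higher by their brightest probe set. Adsl, adenylosuccinate lyase, read 1636 and 2750 in GC cells and 1640 and 2740 in naive cells. Within each tissue the signals were nearly equal, and PP was 1.68-fold above pLN in GC cells and 1.67-fold in naive cells. Gmps, GMP synthetase, read 2348 and 2228 against 2584 and 1328 and was not called (0.30 ± 0.39). Its other 2 probe sets were called higher, and with the mean of all 3 the difference was 2.27 (limma adjusted p = 0.000295). Those 2 probe sets passed the filter only through the GC arrays. Their naive PP signals, 2.91 and 72.3, were under the level, so the size of that mean is uncertain. Gart, a trifunctional enzyme, read 1184 and 1194 in GC cells and 1820 and 3765 in naive cells, and was called lower (-1.13 ± 0.40, limma adjusted p = 0.033). Its 4 probe sets spanned -1.13 to 1.64, and with the mean of all of them the difference turned to 0.22. Impdh1, an IMP dehydrogenase, read 73.7 and 61.0 against 232 and 144, the last just under the detection level of its array. It was called lower by a narrow margin (limma adjusted p = 0.0494). The salvage genes Hprt and Aprt, which return free bases to nucleotides, were not called. Hprt read 3302 and 3102 against 4704 and 5346, and Aprt 1573 and 1676 against 2039 and 1303.

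Ppat and Paics lie on opposite strands with annotated 5′ ends that overlap, and both promoters are shown because the pair was higher together. Atic and Tyms are shown as further members called higher that hold the same E-box as Paics. Sequences are from RefSeq on the build GRCm38.p6, 250 bases before to 50 after the annotated start, 5′ to 3′ on the gene's strand. Capitals mark every match, on either strand, to CACGTG (E-box, bound by the Myc family among others), TTCCCGC or TTGGCGC (core letters of E2F sites) and CCAAT (the NF-Y box). None of these motifs overlapped another in the windows shown. Paics lies at chr5:76951052-76951351 on the plus strand, and Ppat at chr5:76951529-76951828 on the minus strand. The annotated starts are 276 bases apart, and each gene reads toward the start of the other, so both genes cover this stretch. The bases between the windows of Paics and Ppat are not shown. Atic lies at chr1:71556906-71557205 on the plus strand, and Tyms at chr5:30073576-30073875 on the minus strand.
Paics: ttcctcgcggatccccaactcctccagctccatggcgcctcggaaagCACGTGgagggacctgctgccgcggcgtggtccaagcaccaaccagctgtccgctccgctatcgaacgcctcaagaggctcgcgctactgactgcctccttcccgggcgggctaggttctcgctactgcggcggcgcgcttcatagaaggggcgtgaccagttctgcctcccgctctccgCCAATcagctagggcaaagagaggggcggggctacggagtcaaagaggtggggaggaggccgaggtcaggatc
Ppat: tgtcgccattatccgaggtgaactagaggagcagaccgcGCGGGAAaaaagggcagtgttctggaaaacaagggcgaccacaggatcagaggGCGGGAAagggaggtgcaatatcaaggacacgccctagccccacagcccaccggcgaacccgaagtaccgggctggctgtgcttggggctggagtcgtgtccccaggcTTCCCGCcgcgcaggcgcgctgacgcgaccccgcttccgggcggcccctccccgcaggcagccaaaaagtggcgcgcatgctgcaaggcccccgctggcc
Atic: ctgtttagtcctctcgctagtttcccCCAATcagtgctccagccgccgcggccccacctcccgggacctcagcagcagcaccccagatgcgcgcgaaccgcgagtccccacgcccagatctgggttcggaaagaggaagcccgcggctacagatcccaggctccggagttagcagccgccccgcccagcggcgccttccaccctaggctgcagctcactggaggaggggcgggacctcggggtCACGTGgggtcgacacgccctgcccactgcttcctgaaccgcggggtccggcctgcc
Tyms: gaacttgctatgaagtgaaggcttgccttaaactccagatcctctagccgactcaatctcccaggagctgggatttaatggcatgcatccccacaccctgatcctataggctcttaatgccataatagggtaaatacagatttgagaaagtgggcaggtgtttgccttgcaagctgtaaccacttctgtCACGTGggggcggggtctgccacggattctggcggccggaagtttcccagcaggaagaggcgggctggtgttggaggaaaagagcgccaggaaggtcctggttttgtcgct

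Of the 33 genes 31 had an entry in the promoter table, with 37 windows of 300 bases in all. CACGTG stood in 16.2% of these windows and in 7.84% of the 21262 windows of protein-coding genes. It was found in Atic, Paics and Tyms, which were called higher, and in Dtymk and Nme1, which were not called. TTCCCGC stood in 13.5% against 5.95%, in Ppat, Prps1, Prps2 and Rrm1, all called higher, and in Mthfd1, called lower. TTGGCGC stood in 5.41% against 3.09%, in Dtymk, not called, and Shmt1, called lower. CCAAT stood in 35.1% against 38.2%, in 12 members, of which 8 were called higher and 3 lower. These are matches of letters in one window and show no binding.

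Among pyrimidine genes the share called higher was near that of all genes tested. Of 8 genes, 2 were called higher (25%, against 23.3%), 1 lower (12.5%, against 22.1%) and 5 not. The median log2 difference was 0.22. Cmpk1, the kinase that turns UMP and CMP into diphosphates, stood apart at 6110 and 5681 in GC cells against 1029 and 367 in naive cells. It was 3.23 ± 0.41 higher (limma adjusted p = 0.000112), with a ratio of 5.94 in pLN and 15.5 in PP. Uck2, a uridine-cytidine kinase of salvage, read 761 and 1005 against 340 and 516. It was called at 1.04 ± 0.40 (limma adjusted p = 0.0482), the closest call among the genes that were higher.

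The genes of pyrimidine ring synthesis differed in direction. Cad, the enzyme of the first steps, read 884 and 1228 in GC cells and 3471 and 2163 in naive cells. The naive signals were the higher ones in both tissues, and Cad was called lower (-1.38 ± 0.40, limma adjusted p = 0.014), as was its other tested probe set. With scaling to the spike-in controls its difference was -0.03 (limma adjusted p = 0.987). Dhodh, the mitochondrial enzyme of the pathway, read 320 and 418 against 614 and 955 and just missed the threshold (-1.04 ± 0.41, limma adjusted p = 0.0519). It passed under 8 of 15 other settings, but with scaling to the spike-in controls its difference was 0.30 (limma adjusted p = 0.868). Its other probe set differed by 0.29 and was not called (limma adjusted p = 0.62 over probe sets). Umps, which completes UMP, read 1197 and 1260 against 602 and 742 without being called (0.87 ± 0.38, limma adjusted p = 0.0797), although its other tested probe sets were called higher. With the mean of all its probe sets Umps was called at 1.66 (limma adjusted p = 0.00246). Those other tested probe sets passed the filter only through the GC arrays. Their naive PP signals, 58.1 and 3.61, were under the level, so the size of that mean is uncertain.

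Ctps, which makes CTP from UTP, read 2081 and 2197 in GC cells and 1353 and 2152 in naive cells, and was not called (0.32 ± 0.38). Nme1 and Nme2, nucleoside diphosphate kinases with closely similar sequences, were bright on every array. Nme1 read 3748 and 3817 against 4328 and 3032, and Nme2 read 8717 and 9660 against 7356 and 9708. Nme2 differed by 0.12 and was not called, but was called higher under quantile normalization (1.00), cyclic loess (1.11) and spike-in scaling (1.49), at limma adjusted p of 0.00255, 0.00549 and 0.00859. Signals of this pair are uncertain, since probes for one may bind the other.

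Among the 4 folate genes, the mitochondrial Mthfd2 and Shmt2 were higher in GC cells by their brightest probe sets. The cytosolic Mthfd1 and Shmt1 were lower by theirs. Mthfd2, a mitochondrial dehydrogenase and cyclohydrolase, read 2571 and 2379 in GC cells (pLN, then PP) against 358 and 189 in naive cells. It was 3.19 ± 0.40 higher (limma adjusted p = 9.82e-05), and both of its probe sets were called. Shmt2, the mitochondrial serine hydroxymethyltransferase, read 1966 and 2853 against 1275 and 938 and was 1.11 ± 0.39 higher (limma adjusted p = 0.0352). All 4 of its probe sets were above 0, from 0.15 to 3.73. Among probe sets without a suffix for shared transcripts its difference was 0.35 and not called (limma adjusted p = 0.493).

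The cytosolic counterparts were less certain. Mthfd1, the trifunctional cytosolic enzyme, read 2162 and 3000 in GC cells against 5767 and 12708 in naive cells, and was called lower (-1.74 ± 0.40, limma adjusted p = 0.00417). A further probe set of Mthfd1 read 2101 and 2998 in GC cells against 187 and 300 in naive cells and was called higher (3.34, limma adjusted p = 5.55e-08 over probe sets). The remaining probe set of Mthfd1, the only one without a suffix for shared transcripts, differed by -0.92. It was not called (limma adjusted p = 0.0675 over probe sets). Shmt1, the cytosolic serine hydroxymethyltransferase, read 830 and 1207 against 1916 and 3373 and was called lower (-1.33 ± 0.37, limma adjusted p = 0.0113). Its other probe sets differed by -0.01 to 1.19 and were not called. With the mean of all probe sets Mthfd1 and Shmt1 turned to 0.23 and 0.18, and neither was called.

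Probe sets of a gene were then compared. Of the 84 probe sets 78 were tested. Of these 43 were called higher, 10 lower and 25 not called, against 31.5% called higher and 17.1% lower among the 19419 tested. The median log2 difference was 1.33 over the member probe sets and 0.37 over all. Several tested probe sets were available for 24 genes. In 15 of them every probe set was above 0, in 1 (Cad) every one was below 0, and in 8 they lay on both sides. Among genes called higher, 12 of 13 with several probe sets had all of them above 0, the exception being a dim probe set of Rrm1 at -0.50. Among genes called lower, 1 of 5 had all of them below 0. Many of the probe sets called higher, such as all those tested for Tyms, passed the filter only through the GC arrays. For these the filter and the sign are not independent. The same counts over all genes with several probe sets were not made. Of the genes not called, Gmps, Umps, Nme1 and Dtymk each had another probe set called higher. For Gmps such a set read 544 and 581 in GC cells against 105 and 2.91 in naive cells, the last under the level. The 3'/5' ratios given above were high on the naive arrays, and the place of each probe set along its transcript is not given in the sources used here.

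**Figure D2:**
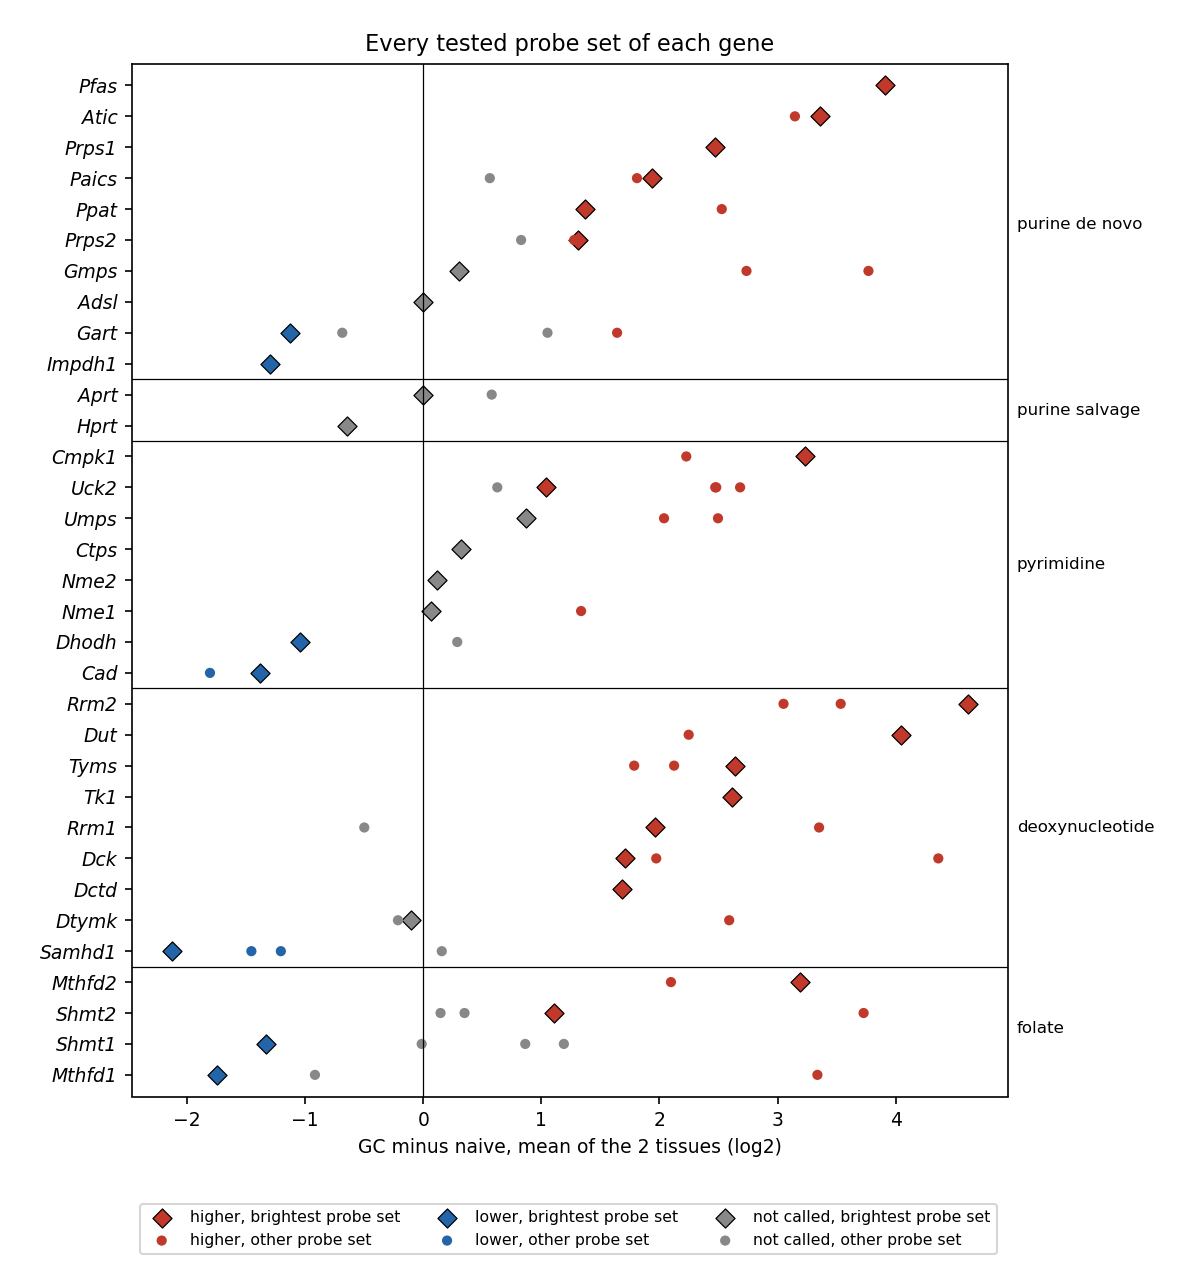
GC minus naive difference (log2, mean of the 2 tissues) of every tested probe set of the 33 genes; diamonds mark the brightest probe set, circles the others, and colour the limma call over all probe sets. All 3 probe sets of Rrm2 lie right of 3, while those of Mthfd1 run from -1.74 to 3.34; the brightest probe set of Dhodh is called here but not among genes.

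The GC-naive difference was also read within each tissue, where 1 array stands against 1 array and no test is possible. In pLN the GC signal exceeded the naive signal at least 2-fold for 13 members, where 21.6% of all genes did so, and was exceeded for 5, where 24.9% did. In PP the counts were 16 members (background 32.1%) and 5 members (background 26.9%). The difference had the same sign in both tissues for 27 members. It was the larger one in PP for 12 of 15 called higher, leaving out Tyms and Dctd, whose naive signals were both under the level. These 12 include Pfas and Atic, whose naive PP signals were under the level, so the sizes of their PP differences are uncertain. Over all tested genes 67.6% had the larger difference in PP, where the gap in 3'/5' ratio was also wider. Dck had a ratio of 1.72 in pLN and 6.29 in PP. Cad differed more in pLN, with naive cells 3.93-fold higher in pLN and 1.76-fold higher in PP.

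**Figure D3:**
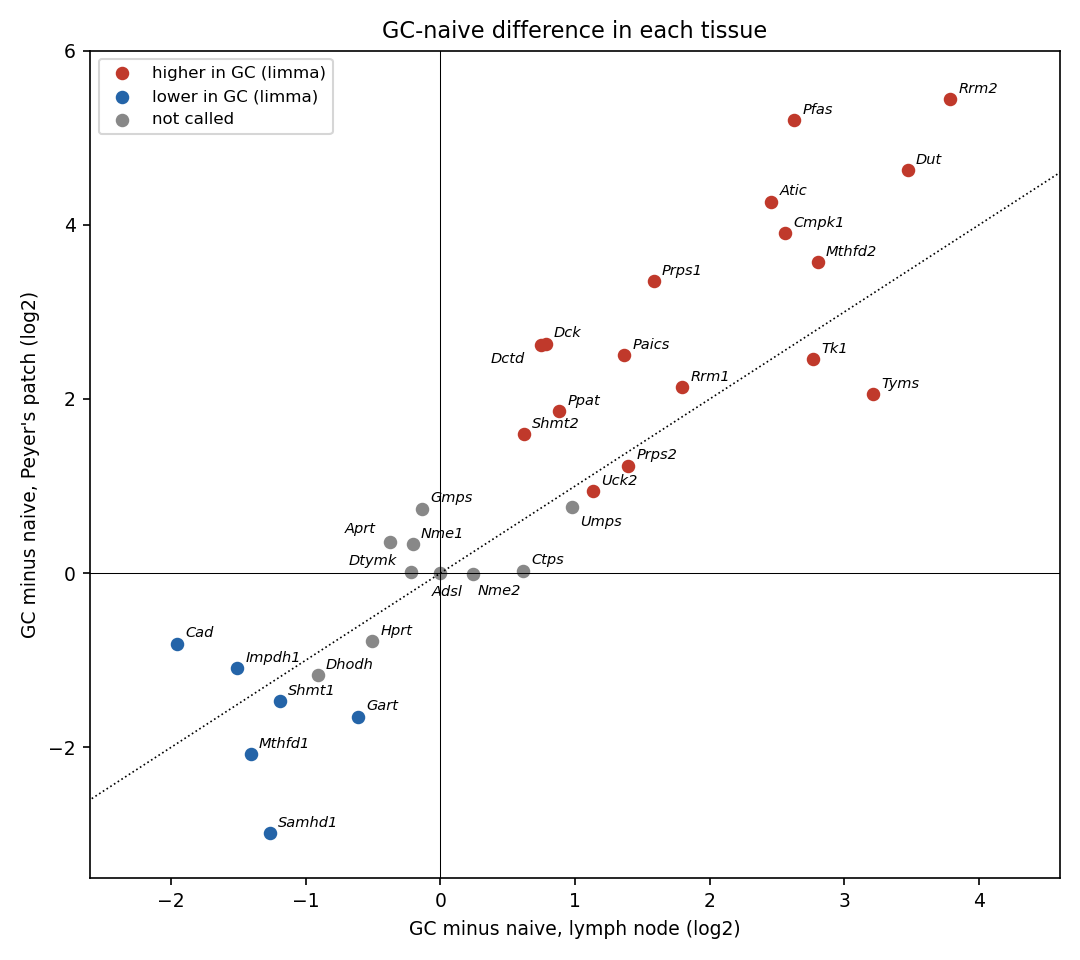
GC minus naive difference (log2) of each gene in lymph node (horizontal axis) and Peyer's patch (vertical axis), coloured by the limma call over both tissues; the dotted line marks equal differences. Pfas, Dck and Prps1 lie above the line and Tk1 below it. Both naive signals of Tyms and Dctd were under the detection level, as were the naive PP signals of Pfas, Atic and Impdh1. The places of these genes are uncertain.

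Peyer's patch and lymph node were compared within each cell type, again without a test. GC cells of the tissues were close: no member reached 2-fold in either direction, against 6.05% of genes higher and 2.69% lower in PP. The PP to pLN ratio of the members ran from 0.617 for Prps2 to 1.90 for Tyms, with a median of 1.11. Naive cells differed more, with 3 members at least 2-fold higher in PP (Gart, Samhd1 and Mthfd1) and 7 lower (Prps1, Pfas, Atic, Cmpk1, Rrm2, Dck and Dut). Pfas and Atic were under the level on naive PP. The counts were 9.68% and 22.6% of the members above the level on either naive array, near the 8.83% and 17.4% of all genes. Naive PP also had a higher Gapdh 3'/5' ratio than naive pLN (96.4 against 18.7) and a higher gut epithelium sum (3080 against 1230). The part of these in the counts was not tested. All 7 that were lower in naive PP cells were among the genes called higher in GC cells, and the 3 that were higher were among those called lower. Both sets share the naive arrays, so this is no separate evidence. Under the deposited scaling, quantile normalization, cyclic loess, spike-in scaling or averaged probe sets, 0 members were 2-fold higher in naive PP cells. The number lower was 13 under the deposited scaling and 19 under spike-in scaling.

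Other genes of these pathways were read from a list of 77, of which 65 were measured and 49 tested. Among the tested genes 19 were called higher (38.8%, against 23.3% of all genes), 11 lower (22.4%, against 22.1%) and 19 not called. Of the 19 higher genes, 7 passed the filter only through the GC arrays. The largest increase was in Ada, adenosine deaminase, which read 4557 and 3061 in GC cells against 134 and 399 in naive cells (3.93 ± 0.48, limma adjusted p = 7.85e-05). Mtrr, which reactivates methionine synthase, was at least 3.89-fold higher. Ampd2, an AMP deaminase, was 2.72 ± 0.41 higher, although another probe set differed by -0.51. Itpa, which removes deaminated purine nucleotides, was at least 4.25-fold higher. Mtap, which salvages methylthioadenosine, had the largest decrease, at 980 and 465 in GC cells against 5598 and 9262 in naive cells (-3.39 ± 0.44, limma adjusted p = 0.000127). Xdh, xanthine dehydrogenase, was at least 7.45-fold lower, Ggh, which trims folate polyglutamates, differed by -2.89 ± 0.45, and Ctps2, the paralog of Ctps, by -2.88 ± 0.43. Of the deoxynucleotide genes on this list 4 of 7 were called higher and 3 were not called. The higher ones included Rrm2b, the p53-induced reductase subunit, at 1.16 ± 0.37, and Dctpp1, a dCTP pyrophosphatase, at 1.85 ± 0.41. Of the other list's folate and one-carbon genes 7 of 16 were called higher (43.8%), 3 lower (18.8%) and 6 were not called. The mitochondrial Mthfd1l was among those not called, at -0.18 ± 0.37.

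**Figure D4:**
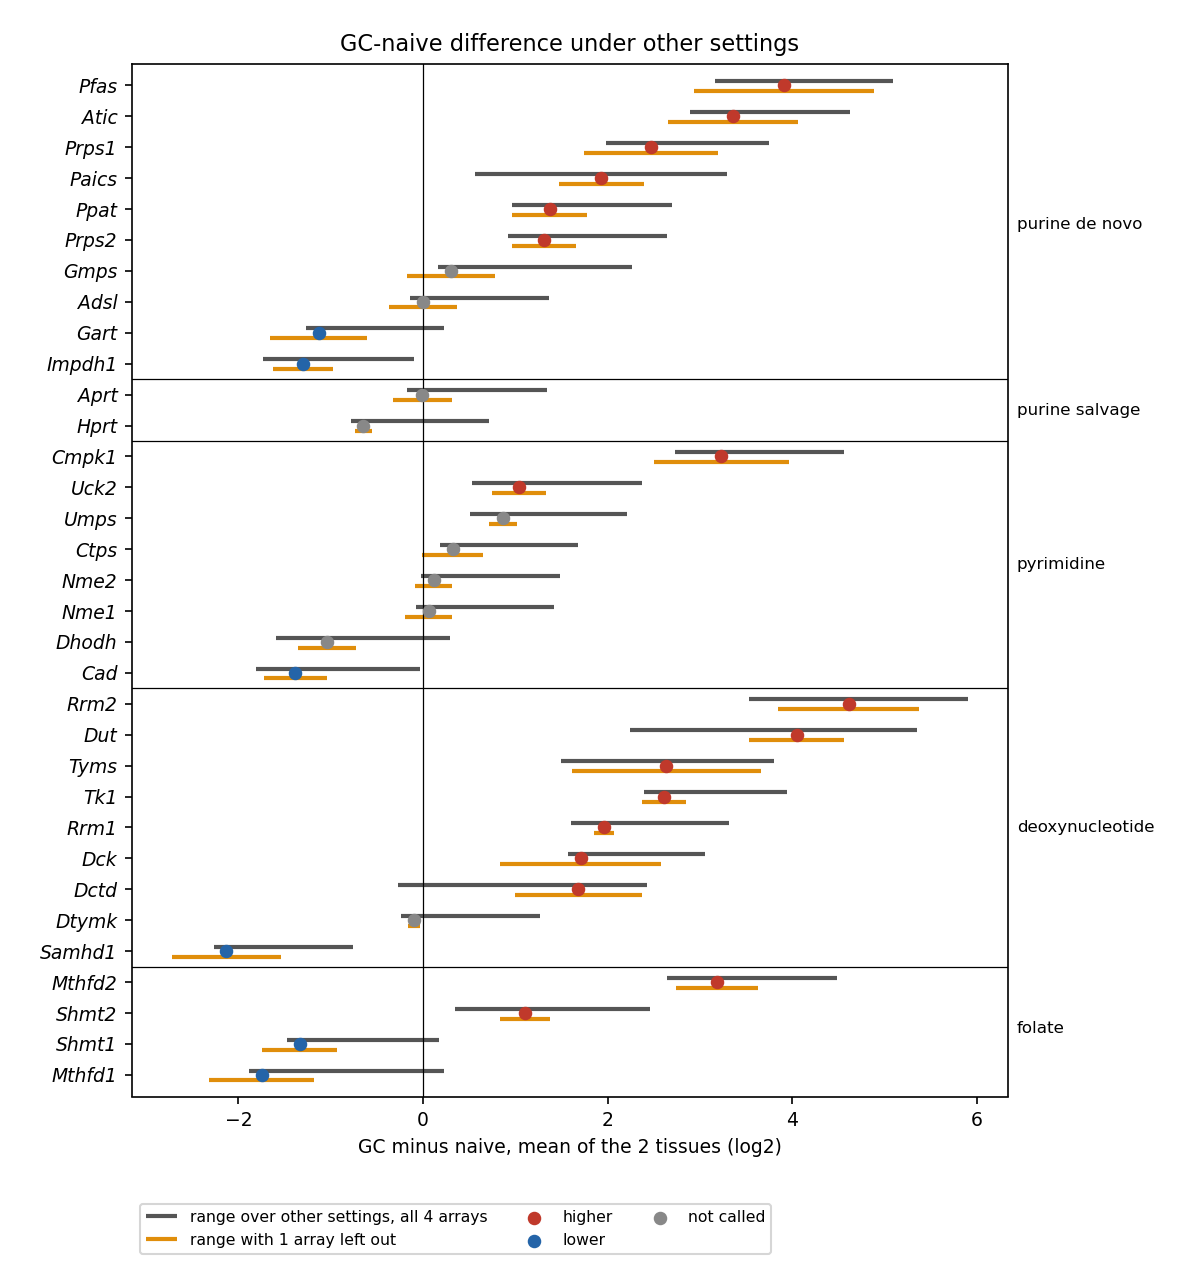
GC minus naive difference (log2) of each gene (point, coloured by call) with its range over other processing settings that keep the 4 arrays (grey bar) and with 1 array left out (orange bar). The bars of Rrm2, Pfas and Mthfd2 stay right of 2, while those of Gart, Shmt1, Mthfd1 and Dctd cross 0 under some settings.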

How the data were processed

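The deposited table held 1 intensity per probe set and array on a linear scale. The authors made it with GCOS, per the submitters' processing notes; version, algorithm and scaling were not given in the sources used here. Arrays were brought to one trimmed mean, 500 (2% off each end). A detection level was the 90th percentile of 79 probe sets of other-tissue genes on that array, and their median, 12.2, was added before log2. Gene symbols came from the platform annotation: 34945 probe sets had 1 symbol, 932 several and 9211 were not listed. A gene was its brightest probe set, tested where both arrays of either cell type exceeded the level. The cell types were compared by limma 3.58.1 (R 4.3.3), tissue as a block, with trended variances and Benjamini-Hochberg adjustment over all genes tested, and likewise over probe sets. Errors are moderated standard errors of that fit. With 1 array per group, comparisons within a tissue or cell type had no test, and a 2-fold difference with the brighter array above the level was counted. All members are named, and of the other pathway genes the 4 highest and 4 lowest among those called. Rrm2b, Dctpp1 and Mthfd1l were chosen after their values were seen. Members and lists were chosen with earlier results of these data known. Alternatives covered scaling, offset, filter, probe set choice, block, variance trend and each array left out.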

Additional observations from a re-analysis of the deposited data

Results flagged for a closer look

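For 6 genes the GC-naive difference had opposite signs in the tissues, with 1 array each, so the difference between tissues was not tested. As the log2 difference in PP minus that in pLN, the gap was 0.88 for Gmps, 0.73 for Aprt, 0.54 for Nme1, 0.23 for Dtymk, -0.25 for Nme2 and 0.0086 for Adsl. None of these genes was called over both tissues by limma. Gmps and Aprt read lower in GC cells of pLN and higher in GC cells of PP, and for Adsl both tissues were close to 0.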

How the results depend on the processing

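Over 15 other settings that kept the 4 arrays, 11 of the 23 called members were called in the same direction in every one: Prps1, Ppat, Pfas, Atic, Cmpk1, Rrm1, Rrm2, Tyms, Tk1, Dut and Mthfd2. Of these, 9 were also called with each array left out in turn; Ppat and Tyms were not. Scaling to the spike-in controls left 73 of all genes called lower and 0 members (genes and probe sets alike) by limma, with 0 members lower at an unadjusted p under 0.05, and turned Gart to 0.23 and Shmt1 to 0.024. Under that scaling 20 members were 2-fold higher and 1 lower in pLN, 27 higher and 1 lower in PP, and in naive cells 0 higher and 19 lower in PP than in pLN. The deposited scaling gave 0 higher and 13 lower for that naive comparison; quantile normalization and cyclic loess gave 0 higher. With the mean of all probe sets 3 members were called lower, Gart turned to 0.22, Shmt1 to 0.18 and Mthfd1 to 0.23, 2 members were 2-fold lower in pLN and 1 in PP, and 0 were higher in naive PP. With dim signals set at the level Dctd turned to -0.27. The cause of these changes was not tested. With 1 array left out the genes called ran from 1015 to 3381 higher and 752 to 3110 lower, members from 10 to 18 and 1 to 7, and member probe sets from 18 to 47 and 0 to 11 (limma), in fits that also drop the tissue block and assume that a lone array varies like the others. Without the tissue block 14 members were called higher and 4 lower. Without a change of sign, calls of Uck2 were lost in 7 settings, of Dctd in 4, and of Prps2 and Impdh1 in 3 each. Those of Gart, Mthfd1, Paics and Shmt2 were lost in 2 each, and those of Cad, Samhd1 and Dck in 1 each. Dhodh was called lower in 8, and Nme2 in 3, Umps in 2 and Gmps in 1 were called higher. The low signals of Tyms, Dctd and Impdh1 limit their values. Tissue was the only pairing of the arrays.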
